A study of Mus musculus with 9 samples.

Results

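CpG methylation was read at 10 maternally methylated imprint control regions of the mouse genome in embryonic stem cells without DNA methyltransferases, some of which carried constructs of Dnmt3a2. The members were the regions of Snrpn, Peg3, Mest, Kcnq1ot1, Airn, Plagl1, Grb10, Nnat, Peg10 and Impact, each taken as a fixed window of the build mm9. Members and windows were chosen with earlier results of these data known. Within these windows 279 CpG positions, with each strand of a CpG as its own position, were covered by at least 10 reads in all 5 deposited tables, of 1263118 such positions in the nuclear genome. They lay in 20 of the 47 tiles of 1 kb that make up the windows, so most tiles held no such position. The covered share differed between members, from 1 of 5 tiles for Peg10 to 4 of 5 for Nnat. Gene annotation of mm9 was not used here, and positions are not assigned to exons or introns.

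The assay was reduced representation bisulfite sequencing (RRBS), which reads CpGs near the CCGG sites cut by the enzyme MspI. All cells were of the mouse embryonic stem cell line J1, at passages 7 to 10, with the Dnmt TKO background. TKO (1 sample) and C (2 samples) have no construct in their labels. WT carried wild-type Dnmt3a2, the shorter isoform of the de novo methyltransferase Dnmt3a, and WWD and R carried mutant Dnmt3a2 constructs known here only by those labels (2 samples each). The labels tie 1 table to each group, called its pool, so no spread between replicates can be given and each test compares the reads of 2 pools, not conditions. Protein levels of the constructs were not analysed here, so a difference between constructs cannot be told apart from one in how much enzyme was made. Whether any line was a single clone is not given in the labels.

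An imprint control region carries DNA methylation on the chromosome inherited from one parent and directs which parental copy of the nearby genes is used. In the regions described here the mark is set in the growing oocyte, where Dnmt3a acts together with its cofactor Dnmt3l, and is then copied by the maintenance enzyme Dnmt1 in the embryo. Cells that have lost Dnmt1 lose these marks, and the zinc-finger protein ZFP57, which binds methylated TGCCGC, is known to help keep them in cells that have them. Most of these regions overlap the promoter of a gene that is expressed from the paternal chromosome.

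The promoters below are shown because the covered CpGs of their windows fall in them. RefSeq promoters (build GRCm38.p6, 250 bases before to 50 after the start) were found for 8 of the 10 members, all but Peg10 and Impact. A promoter was placed on its mm9 window by the spacing of CpGs alone, where at least 3 covered CpGs matched, none fell off a CpG and no other placement matched as many. This held for Snrpn (7 CpGs in the promoter, 3 matched), Plagl1 (26 CpGs, 19 matched) and Nnat (17 CpGs, 4 matched). Capitals mark the CpGs matched to a covered position in at least 1 pool, 5′ to 3′ on the strand of the gene.
Snrpn, chr7:60005150-60005449, minus strand: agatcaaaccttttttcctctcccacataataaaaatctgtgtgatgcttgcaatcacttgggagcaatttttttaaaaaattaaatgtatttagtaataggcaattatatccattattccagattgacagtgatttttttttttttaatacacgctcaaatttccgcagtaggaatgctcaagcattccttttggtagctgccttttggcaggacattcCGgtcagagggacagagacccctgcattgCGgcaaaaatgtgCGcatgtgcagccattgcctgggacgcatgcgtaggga
Plagl1, chr10:13090582-13090881, plus strand: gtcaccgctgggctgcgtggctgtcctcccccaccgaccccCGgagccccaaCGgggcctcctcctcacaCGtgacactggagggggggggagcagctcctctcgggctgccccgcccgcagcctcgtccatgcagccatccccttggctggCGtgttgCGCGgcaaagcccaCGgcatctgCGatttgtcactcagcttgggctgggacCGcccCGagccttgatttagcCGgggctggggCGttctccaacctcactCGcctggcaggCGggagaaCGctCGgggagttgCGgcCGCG
Nnat, chr2:157559828-157560127, plus strand: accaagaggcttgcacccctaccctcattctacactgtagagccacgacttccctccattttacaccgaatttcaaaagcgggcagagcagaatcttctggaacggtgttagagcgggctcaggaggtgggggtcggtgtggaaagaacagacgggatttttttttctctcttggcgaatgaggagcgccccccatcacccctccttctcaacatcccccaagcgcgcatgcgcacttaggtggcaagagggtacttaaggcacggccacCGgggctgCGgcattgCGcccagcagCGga

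At the common positions among the matched CpGs the promoters were close to unmethylated with wild-type Dnmt3a2. The 19 common positions of the Plagl1 promoter averaged 0.294% in WT, with 14 of them at 0 methylated reads and the highest at 1.68%. These 19 include both strands of some CpGs, so they do not cover all its matched CpGs, and 8 were at full depth, as defined below. The 4 positions of the Nnat promoter averaged 1.045% in WT, and the 3 of the Snrpn promoter 0.44%. In TKO the same positions averaged 0.0737% for Plagl1, 0.308% for Nnat and 0% for Snrpn, at medians of 14, 165 and 19 reads per position. The hexamer TGCCGC, searched on both strands, was present in 6 of the 14 promoters listed for the 8 members (at least 1 each of Snrpn, Mest, Plagl1, Grb10 and Nnat), against 11.6% of all 32851 promoters of this length. The Mest promoters that start at 30737800 and 30737803 overlap almost wholly and are both counted. The hexamer holds a CpG, and the share over all promoters was not matched for the number of CpGs. A match is a description of the sequence and not of binding.

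Read depth differed between the pools over the members. Median coverage at the 279 positions was 133 reads in WT, 117 in R and 92 in WWD, against 59 in TKO and 96 in C. At 160 of them (57.3%, against 72.0% of all common positions) TKO had at least 0.5 times the reads of WT. These are called full-depth positions, and TKO and WWD had medians of 159.5 and 159 reads there. The class rests on this ratio and not on the number of reads. It holds 12810786 of Plagl1, for example, with 12 reads in TKO and 21 in WT. At the other 119 positions TKO had a median of 17 and WWD of 21, while WT had 119, so a few reads can make a high percentage in those pools. Mitochondrial CpGs, which give the rate of unconverted cytosines, averaged 0.0625% to 0.12% methylated over the pools.

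Wild-type Dnmt3a2 left the imprint control regions almost without methylation, although cells carrying it were partly methylated over the genome. Averaged with equal weight over the 10 members, the level was 1.07% in WT, 1.08% in R and 1.69% in WWD, against 0.459% in TKO and 0.106% in C. Over all common positions of the genome the means were 14.7% in WT, 15.4% in R, 6.20% in WWD, 0.501% in TKO and 0.334% in C. The median over members was 0.414% in WT. There 8 of 10 members were under 1%, 185 of the 279 positions had no methylated read, and 3 positions were above 10%, or 1.08%, where 36.4% of all common positions were. Pooled over positions, WT had 369 methylated of 37690 read calls, or 0.979% (Wilson 95% interval 0.885 to 1.08), and TKO 56 of 27458, or 0.204% (0.157 to 0.265). Reads that span several CpGs enter several times and PCR copies are not separate molecules, so these intervals hold counting error only and are too narrow.

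The high average of WWD rested on positions with few reads. At full-depth positions the mean over members was 0.54% in WWD, 1.09% in WT, 0.992% in R, 0.129% in TKO and 0.077% in C. WWD was above WT in 7 of 10 members over all positions and in 4 of 10 at full depth. R was above WT in 6 and in 4 members.

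**Figure D1:**
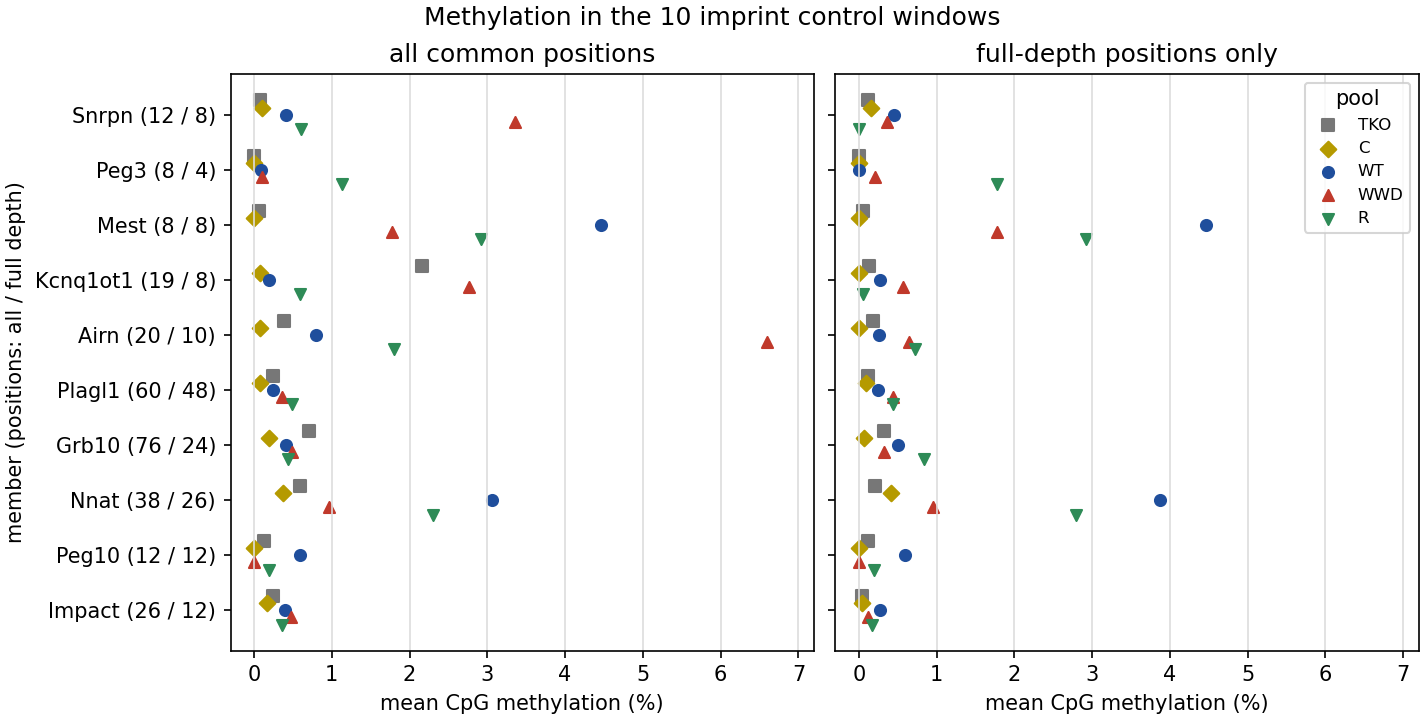
Mean CpG methylation (percent, x axis) of each member (y axis, with its number of common and of full-depth positions) in the 5 pools, over all common positions (left) and at full-depth positions (right). Of the 10 members 4 lie under 1% in every pool on the left and 7 on the right. Mest and Nnat stand out in WT, at 4.46% and 3.06% over all positions, and the high WWD values of Airn (6.60%), Snrpn (3.36%) and Kcnq1ot1 (2.77%) are absent on the right.

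Among the members that start a long non-coding RNA, WT methylation stayed under 1%. Kcnq1ot1, a transcript that silences neighbouring genes in cis, had 19 common positions between 150481280 and 150481523 of chromosome 7. Its level was 0.189% in WT, 0.597% in R and 2.77% in WWD, against 2.16% in TKO and 0.0732% in C. At its 8 full-depth positions the values were 0.274%, 0.0588%, 0.563%, 0.13% and 0% in the same order, so WWD and TKO were above 1% only with the reduced-depth positions included. Airn, the antisense RNA that silences Igf2r, had 20 positions between 12934456 and 12935287 of chromosome 17. Its level was 0.803% in WT, 1.81% in R and 6.60% in WWD, against 0.384% in TKO and 0.082% in C. At its 10 full-depth positions it was 0.261% in WT, 0.721% in R, 0.645% in WWD, 0.179% in TKO and 0% in C. The tile of Airn that starts at 12934001 held 1.80% in WT and 3.72% in R over 7 positions, none at full depth. The next tile held 0.265% in WT over 13 positions.

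The members at 2 genes of zinc-finger proteins had the lowest and the third lowest level in WT, but Peg3 was higher in R. Plagl1, a zinc-finger factor that restrains growth, had 60 positions between 12810429 and 12810995 of chromosome 10. Its level was 0.239% in WT, 0.483% in R and 0.356% in WWD, against 0.241% in TKO and 0.0743% in C, so no pool reached 1%. At its 48 full-depth positions TKO held 0.112% and WT 0.246%. Peg3, a zinc-finger protein, had 8 positions between 6682973 and 6683039 of chromosome 7, and no methylated read in TKO (0 of 1117 read calls, which allows up to 0.269%) or in C. It held 0.0963% in WT, 1.13% in R and 0.104% in WWD. The R value came from 2 neighbouring positions above all, with 4.26% of 188 reads at 6682973 and 2.83% of 212 reads at 6682990, where WT had no methylated read of 224 and 226. Neither passed the test of R against WT below.

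Grb10 and Impact, an adaptor of growth factor receptors and a regulator of the translation kinase Gcn2, were covered by more positions than most members. Grb10 had 76 positions between 11925631 and 11926884 of chromosome 11. Its level was 0.417% in WT, 0.438% in R and 0.49% in WWD, against 0.703% in TKO and 0.188% in C, so TKO was the highest pool over all positions. Its covered tiles held 0.228% (19 positions) and 0.48% (57 positions) in WT. Of its positions 24 were at full depth, where R was highest at 0.84%, WT held 0.509%, and TKO and WWD 0.328% each. The highest WT position, 11926836 on the reverse strand, held 6.96% of 158 reads in WT, 3.88% of 129 in WWD, 12.1% of 132 in R and no methylated read of 146 in TKO. Impact, on chromosome 18, had 26 positions between 13130707 and 13132015 and held 0.399% in WT, 0.364% in R and 0.477% in WWD, against 0.244% in TKO and 0.162% in C. At its 12 full-depth positions it held 0.271% in WT, 0.168% in R, 0.119% in WWD, 0.0392% in TKO and 0.0383% in C, so WWD was above WT only with the reduced-depth positions included.

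Snrpn and Peg10 were low in WT at well-covered CpGs. Snrpn encodes a protein of the splicing machinery and lies in the domain of the Prader-Willi syndrome. Its 12 positions between 67149466 and 67150115 of chromosome 7 averaged 0.412% in WT, 0.598% in R and 3.36% in WWD, against 0.0783% in TKO and 0.107% in C. At its 8 full-depth positions WT held 0.453%, R 0% and WWD 0.364%. Peg10, a gene of retrotransposon origin needed for the placenta, had 12 positions, all at full depth, between 4697355 and 4697490 of chromosome 6. It held 0.123% in TKO, 0.593% in WT and 0.197% in R, and no methylated read in C and WWD.

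Mest and Nnat were the exceptions, and at the positions common to all pools the highest methylation of each lay in 1 tile near the window's lower edge. Mest, a gene of the hydrolase fold family, had 8 positions, all at full depth, and held 4.46% in WT, 2.92% in R and 1.78% in WWD, against 0.0588% in TKO and 0% in C. Its tile from 30685001 to 30686000 of chromosome 6 held 16.3% in WT, 10.6% in R and 5.93% in WWD over 2 positions, and its tile from 30689001 held 0.503%, 0.368% and 0.397% over 6. Nnat, which encodes neuronatin, a small membrane protein, had 38 positions and held 3.06% in WT, 2.30% in R and 0.964% in WWD, against 0.594% in TKO and 0.378% in C. Its tile from 157384001 to 157385000 of chromosome 2 held 41.3% in WT, 31.2% in R, 7.06% in WWD, 0.34% in TKO and 0% in C over 2 positions at full depth. At the common positions the other 3 covered tiles of Nnat, among them the one with the promoter printed above, held 0.65% to 1.15% in WT. Positions covered in WT but not in all 5 pools added methylation in both windows. In the tile of the Nnat promoter 8 such positions, from 157385310 to 157385346 and with 21 to 23 reads each, averaged 14.9% in WT, which brings the tile to 7.60% over 17 positions (44 methylated of 1721 read calls). In the Mest tile from 30685001, 4 more positions averaged 17.4% in WT, the highest being 30685509 at 35.3% of 85 reads. No other member had a WT position above 10%, whether common or not, where Mest had 3 and Nnat 7. Among common positions the highest WT values were 44.5% for Nnat, 23.1% for Mest, 8.18% for Airn and 6.96% for Grb10, and from 0.77% (Peg3) to 2.48% (Peg10) for the other 6 members. Over all members 14 of the 20 covered tiles were under 1% in WT at common positions, 4 were between 1% and 10%, and the 2 above 10% were these tiles of Mest and Nnat.

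The DNA outside the windows was methylated in the construct pools for most members, though not evenly. Within 10 kb of either edge 9 members had covered positions, 239 in all, and the median level over these members was 27.4% in WT, 31.9% in R and 8.93% in WWD, against 0.449% in TKO and 0.0797% in C. From 10 to 50 kb outside, over 452 positions of all 10 members, the medians were 17.2% in WT, 17.6% in R and 9.34% in WWD. Only Mest and Nnat had covered positions within 10 kb on both sides of the window. The median of the near flank is that of Kcnq1ot1, with 4 positions. The mean over all 239 positions was 9.94% in WT, since 122 of them flank Grb10 (0.428%) and 54 lie on the higher side of Nnat (1.78%, against 34.8% over 11 positions on its lower side). The WT level was higher near the window than inside it in 9 of 9 members, and higher from 10 to 50 kb in 10 of 10. The flanks hold fewer covered CpGs per kb than the windows, and the part of this difference in the contrast was not tested here.

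Single members differed in this contrast. For Peg10 the window held 0.593% in WT. The 24 positions within 10 kb, all on its higher side, held 43.5% in WT, 43.9% in R and 13.7% in WWD. For Airn 7 nearby positions, all on its higher side, held 40.8% in WT and 20.9% in WWD. The nearest covered CpGs with at least 20% methylation in WT were sought on both sides of the Airn window. They were at 12919281 (71.1% of 121 reads) and 12944149 (46.4% of 140 reads), and the 20 common positions between them were all members. These CpGs lay 24.9 kb apart, so the place where the level changes was not resolved. For Grb10 the 122 positions within 10 kb, all on its higher side, held 0.428% in WT, close to the 0.417% of the window. Its window was thus not set off from its covered neighbourhood. For Snrpn, Plagl1 and Impact the near flank rests on 2, 2 and 1 positions.

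Outside the windows WWD was lower than WT, the direction of the genome means. WWD was below WT within 10 kb of 9 of 9 members and from 10 to 50 kb of 9 of 10, the exception being Grb10, with 10.1% in WWD and 8.28% in WT over 8 positions. At the 6 full-depth positions among them WWD held 0.09% and WT 4.48%, and at full depth WWD was below WT in 9 of 9 near and 10 of 10 far flanks. R was below WT in 4 of 9 and 4 of 10 members. Inside the windows, where all 3 constructs left little methylation, WWD was below WT in 3 of 10 members over all positions and in 6 of 10 at full depth.

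**Figure D2:**
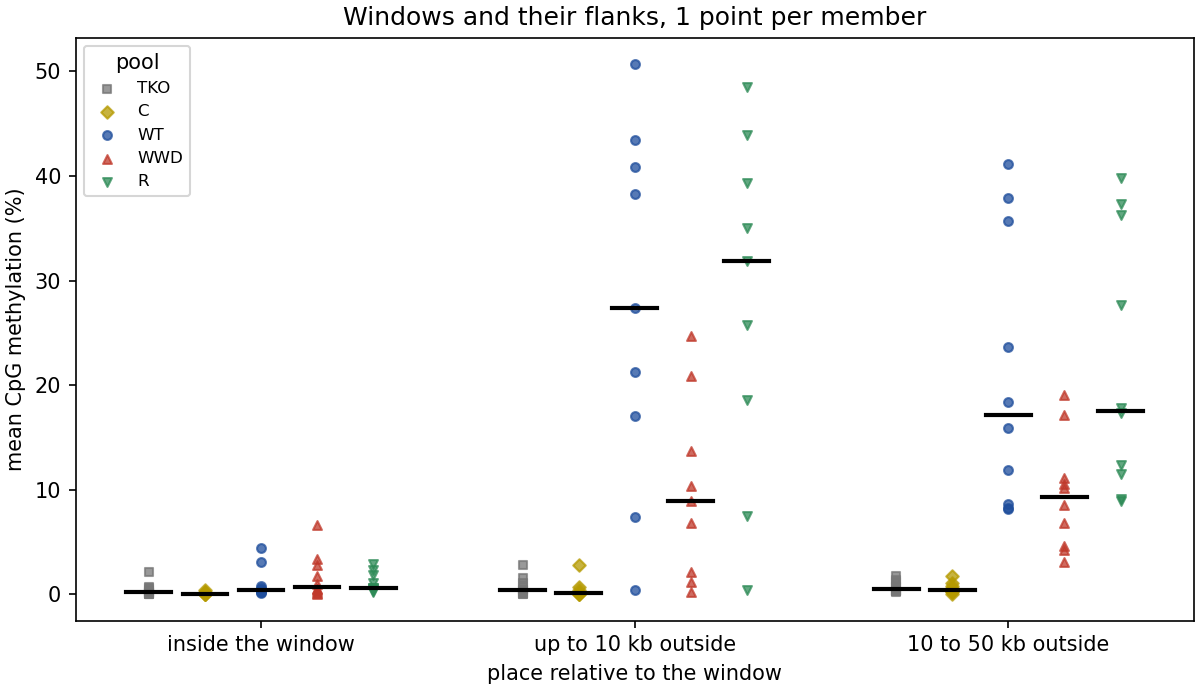
Mean CpG methylation (percent, y axis) inside the windows, up to 10 kb outside and 10 to 50 kb outside (x axis), with 1 point per member and pool and a black bar at the median over members. In WT the median is 0.414% inside, 27.4% in the near flank and 17.2% in the far flank, while the medians of TKO and C stay under 1% in all 3 places.

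To see whether the low level goes beyond what the number of CpGs gives, each member was set against all windows of its own length outside the members whose count of common positions was within 20% of its own. These values are descriptions of the WT pool with no test. The members with few positions lay at the low end. Of 11879 windows like Peg3, with a median of 33.3% in WT, 0.673% had a lower level, and of those like Mest 5.73%. Of 9004 windows like Snrpn and Peg10, with a median of 30.4%, 4.68% were below Snrpn and 5.78% below Peg10. For Kcnq1ot1 8.002% of 4249 windows were lower, for Airn 22.4% of 5029 and for Impact 22.4% of 3997.

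The members with many positions did not stand apart from like windows. For Plagl1 34.4% of 3014 windows were lower, with a median of 0.387%. For Grb10 50.8% of 2421 windows were lower, and for Nnat 64.1% of 3282. Windows with that many common positions were mostly unmethylated themselves, with 69.4% of the windows like Plagl1 and 68.6% of those like Grb10 under 1% in WT. In all, 8 of 10 members were below the median of their like windows in WT, in R and in WWD. The count was also 8 of 10 in C, which has almost no methylation, and 5 of 10 in TKO, so it does not set the construct pools apart. Covered positions of a member often lie close together (within 67 bases for Peg3), which the windows were not matched for. Against 1 kb tiles with the count of the member's best covered tile, the share lower in WT was 4.27% for Mest and 8.04% for Snrpn, but 18.7% for Kcnq1ot1 and 18.9% for Peg10, and 53.1% for Plagl1 and 78.3% for Grb10. The Peg3 tile had no methylated read in WT, so no tile could be lower, and 1.41% of its 40778 like tiles were at 0 as well.

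**Figure D3:**
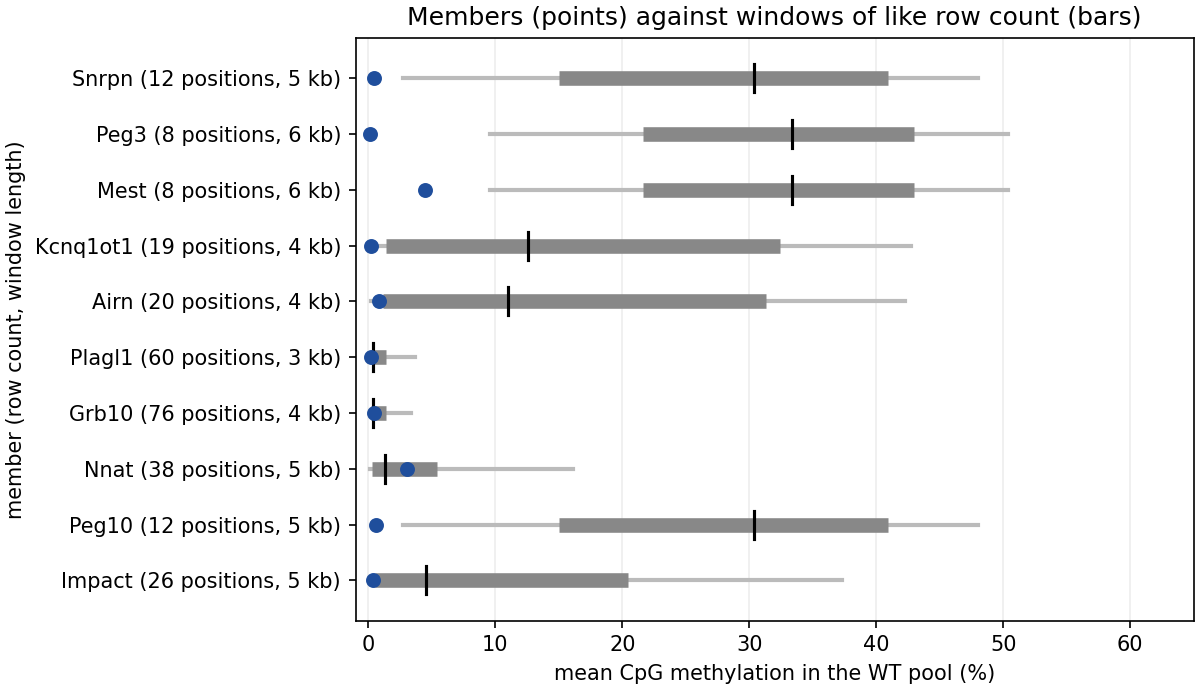
Mean CpG methylation in the WT pool (percent, x axis) of each member (blue point) and of windows with the same length and a row count within 20% (thin bar from the 10th to the 90th percentile, thick bar the middle 50%, black line the median). In all, 7 members lie left of their thick bars, and Plagl1, Grb10 and Nnat do not.

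Few member CpGs differed between the pools by Fisher's exact test, with Benjamini-Hochberg adjustment over all positions tested, a threshold of 0.01 on the adjusted p and of 25 percentage points on the difference. In WT against TKO, 2 of 279 member positions were higher in WT, where 22.5% of all 1288864 positions were, and 2 were lower, where 0.0640% were. The higher positions were those of the Nnat edge tile. At 157384040 WT held 89 methylated of 200 reads, TKO 1 of 146, C 0 of 149, WWD 9 of 131 and R 69 of 206 (adjusted p = 1.34e-23 for WT against TKO by Fisher's exact test). At 157384016, 24 bases away on the same strand, WT held 75 of 197 reads and TKO 0 of 138. Tiles of 1 kb were tested where at least 5 positions were covered in both pools. They passed at 10 points and an adjusted p under 0.01 by Fisher's exact test. In WT against TKO 0 of 14 member tiles passed, where 56.0% of all tiles tested were higher. Of these 14, 3 had an unadjusted p under 0.05, which was not counted over all tiles. Both member tiles above 10% in WT have 2 common positions and were not among those tested, so these counts say nothing of them.

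The 2 positions lower in WT were high in TKO itself, on few reads. In the window of Kcnq1ot1, position 150481374 held 6 methylated of 15 reads in TKO, or 40%, and 1 of 159 in WT, or 0.63% (adjusted p = 4.23e-06 by Fisher's exact test). C had 1.39% and R 3.12% there. In the window of Grb10, position 11925631 held 3 of 12 reads in TKO and 0 of 113 in WT, which allows up to 2.65%. Neither position was at full depth. No member position was lower in WT at full depth, where 1 of all 916029 such positions was.

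In WWD against WT, 2 of 324 member positions were lower in WWD, where 13.4% of all 1511200 positions were, and 6 were higher, where 0.461% were. The lower ones were again those of the Nnat edge tile, with 7.25% and 6.87% in WWD against 38.1% and 44.5% in WT. Of the 6 higher ones Airn held 2, Nnat 2, and Mest and Snrpn 1 each. At 12935102 of Airn WWD had 8 methylated of 15 reads and WT 0 of 122, and at 12934616 WWD had 9 of 26 and WT 0 of 152. At 67149786 of Snrpn WWD had 8 of 26 reads and WT 0 of 90, while the 8 full-depth positions of Snrpn ran from 0% to 1.59% in WWD. At 30685509 of Mest WWD had 20 of 23 reads, or 87.0%, and WT 30 of 85, or 35.3%. At 157386214 of Nnat WWD had 6 of 24 reads and WT 0 of 148, and at 157387514 WWD had 11 of 23 and WT 11 of 84. All 6 had 15 to 26 reads in WWD and none was at full depth. Among positions not at full depth 6 of 164 member positions were higher, where 5533 of all 596914 were. Of the member positions 0 were lower there, where 36309 of all were. At full depth 0 of 160 member positions were higher in WWD and 2 lower, where 6 and 160397 of all 914286 full-depth positions were. No member tile of the 15 tested passed, where 48.7% of all tiles were lower and 0.102% higher in WWD. Of these 15, 5 had an unadjusted p under 0.05, which was not counted over all tiles.

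In R against WT, 0 of 361 member positions passed in either direction by Fisher's exact test, where 0.234% of all 1690346 positions were higher and 0.0438% lower. At an unadjusted p under 0.05, 4 were higher and 4 lower in R, where 113644 and 56450 of all 1690346 positions were. None of 15 member tiles passed, where 2.60% of all tiles were higher and 0.368% lower. Of these 15, 4 had an unadjusted p under 0.05, which was not counted over all tiles. In simulated reads at the coverage of this comparison, 12 of 50 positions changed by 25 points and 46 of 50 changed by 40 points were called, so differences of the smaller size can be missed.

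In C against WT, 3 of 361 member positions were lower in C, where 24.4% of all 1658762 positions were, and 0 higher, where 0.000904% were. They were the Nnat positions at 157384016 and 157384040 and the Mest position at 30685509, with 0 methylated reads of 147, 149 and 33 in C (upper limits of 2.04%, 2.01% and 9.09%) and 38.1%, 44.5% and 35.3% in WT. Of 15 member tiles 1 was lower, the Mest tile from 30685001, with 0% in C and 17.01% in WT over the 6 positions covered in both pools (adjusted p = 4.49e-20 by Fisher's exact test, too small because CpGs share reads), where 61.7% of all tiles were lower.

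At reduced depth, high values at the members fell mostly at the outermost CpG of a run of positions on 1 strand. A position was called outermost where no other common position of its strand lay within 50 bases before it in reading direction. Reads can also begin at positions classed as inner, so the classes do not measure place in the read. A CpG without covered neighbours is always outermost, and the classes were not matched for the number of nearby CpGs. At 12810846 of Plagl1, classed as inner, TKO had 229 reads, against 12 at 12810809 before it on the same strand. Over the 5 pools 13 member positions were above 10% in at least 1 pool, and 8 of the 13 were outermost. At reduced depth 7 of 9 were outermost, and at full depth 1 of 4. At reduced depth the 18 outermost positions averaged 10.4% in WWD, 5.08% in TKO, 2.40% in R, 1.22% in WT and 0.876% in C. The 101 inner positions averaged 0.745%, 0.319%, 0.482%, 0.396% and 0.0726% in the same pools. At full depth the 31 outermost positions averaged 0.681% in WWD and 0.358% in TKO, and the 129 inner ones 0.489% and 0.106%. Over all common positions of reduced depth TKO was likewise higher at outermost positions, with 3.45% against 0.345% at inner ones. WWD held 30.2% against 5.42% there, and WT 34.8% against 10.97%. Over all common positions at full depth, TKO held 0.357% at outermost and 0.0815% at inner positions. WWD held 4.24% and 2.98% there, and WT 21.2% and 9.31%. The higher level at outermost positions was thus limited neither to the members nor to reduced depth. The first CpG of a read belongs to the MspI cut site. Whether place in the read, depth, the number of nearby CpGs or the cells accounts for these values was not tested.

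**Figure D4:**
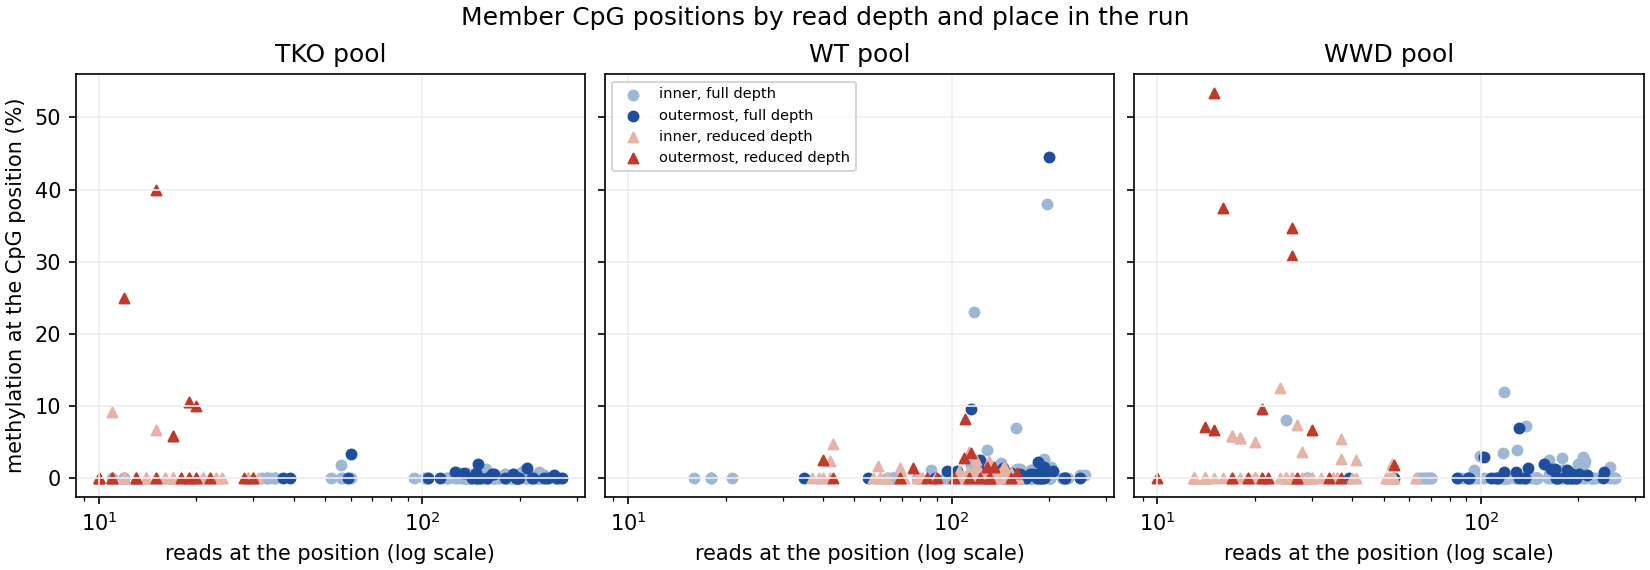
Methylation of each member CpG position (percent, y axis) against its reads (x axis, log scale) in the TKO, WT and WWD pools, by depth class (circles full, triangles reduced) and place in the run (dark outermost, light inner). Values of 25% or more in TKO and of 30% or more in WWD are at outermost positions with at most 26 reads, while the 3 WT values above 20% have 117 to 200 reads.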

How the data were processed

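Size-selected RRBS fragments (150 to 250 and 250 to 400 bp) were sequenced, per the labels' protocols. Bismark, methylKit and mm9 stand in the submitters' processing notes, with no version. Each deposited table lists CpG positions by strand with their read count and percent of C, per the file headers. There were 5 tables with a label, and 1 without, which was left out; its columns and the percent of T make 8 columns not used. A group's table is assumed to join both samples, and may hold only 1.

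Coverage times percent of C, rounded, gave methylated reads. A region's level is the mean over positions with 10 or more reads in every pool. CpG positions and 1 kb tiles were tested genome-wide on reads by Fisher's exact test, two-sided, (Python 3.11.15, scipy 1.17.1). Members, windows, lists and depth classes were chosen with earlier results of these data known, and the split into outermost and inner positions after the values were seen. All members are named, with the highest WT value among common positions and the called positions; the sixth position higher in WWD, past the rule's limit of 5, was named after its value was seen. In simulated reads for WWD against WT (1511200 positions), calls were made at 34 of 50 positions moved by 40 points and at 0 of 1511000 left alone. For its tiles (72621), 47 of 72421 left alone were called. The simulation drew each CpG on its own, without reads shared between CpGs, so this count can be too low. Alternatives varied coverage, depth class, strands, window edges, thresholds and the choice of like windows.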

Additional observations from a re-analysis of the deposited data

How the results depend on the processing

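No paired analysis was possible because the tables hold no separate columns for the numbered samples, and for the same reason no sample could be left out. A level was counted as moved where it shifted by more than the margin of the Wilson 95% interval on its summed reads. This margin is too narrow and does not give the counting error of a mean over positions or members. The mean level over the members in WT moved to 1.54% with all positions of its own table. It moved to 2.04% with windows shortened by 1 kb at each end and to 1.35% with windows extended by 1 kb. The shortened value follows from Mest, whose 2 remaining positions average 16.3%. For R these settings gave 1.38%, 1.64% and 1.45%, and coverage minimums of 20 and 30 gave 0.942% and 0.98% and merged strands 1.19%. For WWD they were 0.879% and 0.526% with minimums of 20 and 30, 0.786% with pooled reads, 2.71% with the own table, 2.11% with shortened windows and 0.54% at full depth. For TKO they were 0.132% and 0.124% with minimums of 20 and 30, 0.188% with pooled reads and 0.129% at full depth. The cause of the other shifts was not tested. For C none moved by this rule on the Wilson interval. Of 400 values of single members under 8 alternatives 81 moved by the same rule.

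Called member CpGs in WT against TKO were 1 at 40 points, 2 with a minimum of 20 reads and 2 at full depth, all higher in WT. Over all positions tested, 193093 of 1288864, 236322 of 998498 and 203329 of 916029 were higher in WT in the same settings. In WWD against WT they were 2 at 40 points, both higher in WWD, where 2701 of all 1511200 positions were higher and 74305 lower. At full depth they were 2, both lower in WWD, where 6 of all 914286 positions were higher and 160397 lower. In C against WT they were 5 at 10 points and 1 at 40 points, all lower in C, where 529192 and 272134 of all 1658762 positions were. The called tile was lost at 25 points and with at least 10 positions (0 each). Over all tiles 34875 of 75323 and 10575 of 32880 were lower in these settings. The count in R against WT was 0 in every alternative run, where at 10 points 8007 of all 1690346 positions were higher and 2810 lower.

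The share of like windows below a member in WT moved as follows. With row counts within 10% it was 5.23% for Mest and 65.9% for Nnat. Within 50% it was 3.38% for Snrpn, 5.95% for Kcnq1ot1, 15.7% for Airn, 46.97% for Grb10, 54.4% for Nnat, 4.15% for Peg10 and 16.7% for Impact. With full-depth positions, an alternative chosen after seeing the data, it was 0% for Peg3, 9.84% for Mest, 3.77% for Kcnq1ot1, 5.80% for Airn, 40.5% for Plagl1, 39.2% for Grb10, 67.8% for Nnat, 12.3% for Peg10 and 7.84% for Impact. For Peg3 the level itself was 0 there and with 1 kb tiles, so no window could be lower. With 1 kb tiles it was 8.04% for Snrpn, 0% for Peg3, 4.27% for Mest, 18.7% for Kcnq1ot1, 14.3% for Airn, 53.1% for Plagl1, 78.3% for Grb10, 27.1% for Nnat, 18.9% for Peg10 and 39.5% for Impact. The cause of these shifts was not tested.

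At 8 to 76 common positions per member and 20 of 47 tiles, these values describe parts of the regions only.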
